A study of Mus musculus with 6 samples.

Results

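The feedback axis that holds bile acid synthesis in check was followed in the liver through 8 genes: Nr1h4, Nr0b2, Nr5a2, Hnf4a, Fgfr4, Klb, Onecut1 and Foxa2. They were taken by gene symbol from the array's annotation, and each of the 8 was measured by 1 probe set, out of 19938 genes tested. The animals were C57BL/6 mice, an inbred laboratory strain, given free access for 2 days to a high fat diet (HFD, 3 biological replicates) or to a regular diet (RD, 3 biological replicates). The titles of all samples contain NI, an abbreviation left unexplained, and age, sex and diet composition were not used here. Each liver had its own array, read as log2 signal, so a difference of 1 is a change of 2-fold.

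FXR, encoded by Nr1h4, is the nuclear receptor that binds bile acids. In hepatocytes it switches on Nr0b2, whose product SHP has no DNA-binding domain and represses genes by binding other receptors, among them LRH-1 (Nr5a2) and HNF4A, which drive the bile acid synthesis genes Cyp7a1 and Cyp8b1. A parallel signal comes from the gut as the hormone FGF15 and reaches the hepatocyte through the receptor FGFR4 (Fgfr4) and its co-receptor beta-Klotho (Klb), which signal through the ERK kinases. HNF6 (Onecut1) and FOXA2 are liver transcription factors that act beside HNF4A.

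To show what these factors could read, the 250 bases before the start site are printed for the members that changed and for the target that fell most, from RefSeq on GRCm38.p6. Capitals mark matches, on either strand, to letters of 7 motifs.
Nr0b2, chr4:133553126-133553375, plus strand: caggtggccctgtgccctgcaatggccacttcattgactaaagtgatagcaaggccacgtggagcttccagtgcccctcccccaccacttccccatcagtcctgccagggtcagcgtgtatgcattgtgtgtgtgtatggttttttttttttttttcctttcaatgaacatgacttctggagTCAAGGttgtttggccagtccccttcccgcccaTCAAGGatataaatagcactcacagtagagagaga
Nr1h4, chr10:89506659-89506908, minus strand: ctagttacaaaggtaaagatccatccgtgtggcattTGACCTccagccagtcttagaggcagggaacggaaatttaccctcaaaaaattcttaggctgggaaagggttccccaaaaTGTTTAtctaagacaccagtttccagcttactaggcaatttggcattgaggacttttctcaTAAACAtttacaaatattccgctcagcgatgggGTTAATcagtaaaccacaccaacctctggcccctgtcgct
Cyp8b1, chr9:121916306-121916555, minus strand: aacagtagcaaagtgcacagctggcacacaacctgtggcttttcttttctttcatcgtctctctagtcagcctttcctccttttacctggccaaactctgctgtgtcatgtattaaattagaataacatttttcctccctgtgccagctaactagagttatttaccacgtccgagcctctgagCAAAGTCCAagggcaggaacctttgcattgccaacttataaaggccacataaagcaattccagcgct
The Nr0b2 window holds TCAAGG, the core bound by LRH-1, at -68 to -63 and again at -35 to -30. At least 1 match to these letters is found in 12.5% of 32851 such windows and at least 2 in 0.922%. The Nr1h4 window holds TGACCT, the reverse complement of the nuclear receptor hexamer AGGTCA (14% of windows), the forkhead letters TGTTTA once on each strand (12% of windows hold at least 1 match and 1.33% at least 2), and GTTAAT of the HNF1 element (6.43%). The Cyp8b1 window holds the HNF4 letters CAAAGTCCA at -67 to -59, seen in 0.384% of windows. The exact inverted repeat of AGGTCA with 1 base between, the classic FXR element, matched none of the 12 windows of the 8 members. That exact repeat is found in only 0.00609% of windows, so its lack here says little about FXR sites. ATCAAT, the HNF6 core (6.72% of windows), matched in 1 window of Hnf4a and in 1 of Foxa2. No match overlapped another in the printed windows. The motifs were chosen with the sequences in view, so the shares of windows do not show that a match is unusual. Letters that match are a description and do not show binding.

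Liver identity was clear on the arrays. The 12 measured hepatocyte markers had a median log2 level of 13.9 in both diets, against 7.55 (HFD) and 7.53 (RD) for all genes. Array medians over all 35512 probe sets, named or not, lay between 7.06 and 7.11, and precision is limited by having 3 arrays per diet. HFD replicate 1 lay farthest from RD on the leading principal component of all genes (21.5, against 12.7 and 12.6 for the other HFD arrays, with RD between -16.5 and -14.5). No member's call depended on it.

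After 2 days of HFD, the repressor gene Nr0b2 was higher and the receptor gene Nr1h4 was lower, so the bile acid sensor and its induced repressor moved in opposite directions. Of the 8 members, 1 rose and 1 fell, where 3.11% of all genes rose and 2.24% fell (5.35% either way). The remaining 6 members did not pass the test (limma, Benjamini-Hochberg adjusted p under 0.05 over all genes). Values of the diets did not overlap in 5 of the 8 members, against 25.7% of all genes. The median difference of the members was -0.06, against -0.0029 for all genes.

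**Figure D1:**
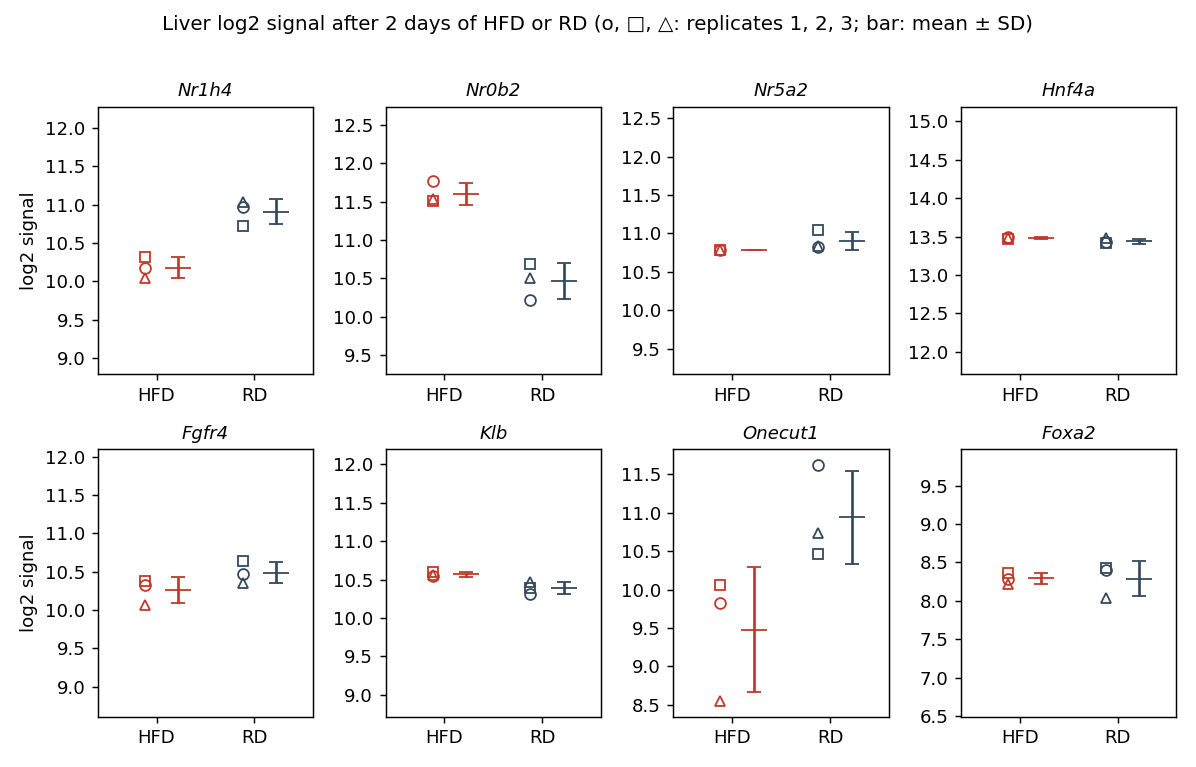
Log2 signal (y axis) of the 8 members on each array, HFD left and RD right, with circles, squares and triangles for replicates 1, 2 and 3 and a bar for the mean and SD (n = 3). All panels span the same log2 range, so the separation of Nr0b2 and Nr1h4, the wide scatter of Onecut1 and the tight values of Hnf4a can be compared.

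Nr0b2 (SHP; probe set 10508887) measured 11.77, 11.52 and 11.53 on the HFD arrays, against 10.22, 10.69 and 10.50 on the RD arrays. Every HFD value was above every RD value, and the gap between the nearest of them was 0.82. The mean was 11.61 ± 0.14 in HFD and 10.47 ± 0.24 in RD (SD, n = 3 each), a log2 difference of 1.13 ± 0.12 (SE; limma adjusted p = 0.0023). That is 2.20-fold higher in HFD, with a 95% interval of 1.80-fold to 2.68-fold. The RD values scattered more widely than the HFD values, over 0.47 against 0.26 for HFD.

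Nr1h4 (FXR; probe set 10371784) measured 10.17, 10.32 and 10.04 in HFD, against 10.97, 10.72 and 11.03 in RD. The diets did not overlap, and 0.40 separated the highest HFD value from the lowest RD value. The mean was 10.18 ± 0.14 in HFD and 10.91 ± 0.16 in RD (SD, n = 3 each), a log2 difference of -0.73 ± 0.10 (SE; limma adjusted p = 0.0078). The HFD level was 0.604 of the RD level, with a 95% interval of 0.512 to 0.713. In bulk liver, fewer cells of a type and less RNA per cell cannot be told apart.

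The receptors that SHP represses showed much smaller differences. Nr5a2 (LRH-1; probe set 10358210) measured 10.78, 10.78 and 10.79 in HFD, against 10.82, 11.04 and 10.84 in RD. The diets did not overlap, but RD replicate 2 carried most of the difference of -0.12 (95% interval -0.29 to 0.06; adjusted p = 0.45), which was -0.05 without that array. Hnf4a (probe set 10478389) measured 13.49, 13.47 and 13.48 in HFD, against 13.43, 13.41 and 13.48 in RD. Its values overlapped between the diets, and its difference of 0.04 had a 95% interval of -0.10 to 0.18 (adjusted p = 0.77), so a change of either receptor gene as large as that of Nr0b2 lies outside these intervals. The SD of Hnf4a within a diet, 0.025 when pooled, was at the 1.26th percentile of all genes.

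The hormone receptor and its co-receptor differed in opposite directions, and neither passed the test. Fgfr4 (probe set 10405380) measured 10.33, 10.38 and 10.07 in HFD, against 10.47, 10.64 and 10.36 in RD. Its groups overlapped, with a difference of -0.23 (95% interval -0.47 to 0.01; adjusted p = 0.28). Klb (probe set 10522127) measured 10.54, 10.60 and 10.56 in HFD, against 10.31, 10.39 and 10.47 in RD. Here all HFD values lay above all RD values, by at least 0.07, with a difference of 0.18 (95% interval 0.02 to 0.34; adjusted p = 0.19). Within each array, Fgfr4 minus Klb was -0.21, -0.23 and -0.50 in HFD, against 0.17, 0.25 and -0.11 in RD. HFD minus RD was -0.41 for that contrast, which was chosen after the values were seen. An exact permutation test gave p = 0.10 (two-sided), the smallest that 3 against 3 arrays allow. Groups already seen to lie apart can give no other p, so it adds nothing to the values.

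Onecut1 (HNF6; probe set 10587082) had the largest mean difference of the 8 and the widest scatter. It measured 9.82, 10.06 and 8.54 in HFD, against 11.63, 10.46 and 10.74 in RD. All HFD values were below all RD values, by at least 0.39, yet HFD replicate 3 and RD replicate 1 stood far from the others of their diets. The difference was -1.46 ± 0.41 (SE; 95% interval -2.41 to -0.52; limma adjusted p = 0.087), which did not pass. Its pooled SD within a diet, 0.72, was at the 99.9th percentile of all genes. The difference was -0.999 without HFD replicate 3 and -1.12 without RD replicate 1. Cyp7a1 had its lowest value on the same HFD array and its highest on the same RD array, as given with the targets.

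Foxa2 (probe set 10488374) measured 8.28, 8.37 and 8.22 in HFD, against 8.40, 8.43 and 8.03 in RD. The HFD values lay within the range of the RD values, and the difference was 0.0015 (95% interval -0.25 to 0.26; adjusted p = 0.996), with a sign that turned when arrays were centred or scaled. RD replicate 3 was the lowest of the 6 values.

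**Figure D2:**
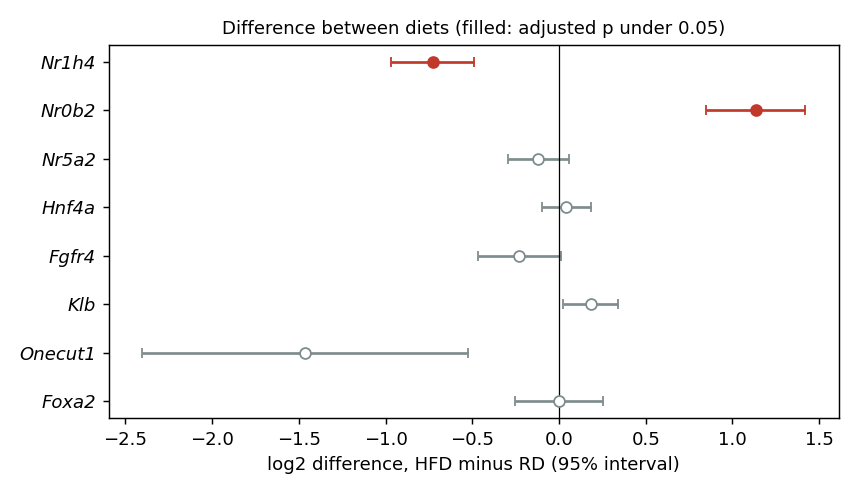
Log2 difference, HFD minus RD (x axis), of the 8 members with the 95% interval of the moderated fit (3 HFD and 3 RD arrays), filled where the adjusted p was under 0.05. Nr1h4 at -0.73 and Nr0b2 at 1.13 are filled. The intervals of Onecut1 and Klb also exclude 0 but did not pass after adjustment.

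Among the textbook targets of FXR, 28 of 30 listed genes had a probe set of their own. Of these 6 rose and 6 fell, where 3.11% of all genes rose and 2.24% fell, with a median difference of -0.01. The list mixes genes that FXR induces with genes lowered through SHP, such as Cyp7a1 and Cyp8b1. Its pooled counts and median therefore give no direction of FXR activity. This list and the other lists were chosen with earlier results of these data known. Counts above the shares of all genes are therefore no test of a list. Bile acid synthesis genes led the falls. Cyp8b1, the sterol hydroxylase needed for cholic acid, measured 6.51, 6.75 and 6.63 in HFD, against 12.47, 12.43 and 12.64 in RD (log2 difference -5.88 ± 0.09, SE; limma adjusted p = 2.0e-08). Cyp7a1, which starts the classic route of bile acid synthesis, measured 7.20, 6.82 and 6.12 in HFD, against 12.15, 11.08 and 11.43 in RD (difference -4.84 ± 0.31, SE). Both genes were separated from RD by several log2 units on every HFD array. Pltp, which transfers phospholipids between lipoproteins, fell by 1.08 ± 0.11 on the log2 scale. Also passing, and named after their values were seen, were Pklr (-0.83), Slc27a5 (-0.37) and Slc10a1 (-0.36), lower in HFD, and Srebf1 (0.97), higher in HFD.

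The FXR targets that rose included export genes, while 16 of the 28 measured targets did not pass. Named after their values were seen, these included Abcc2 (0.26, limma adjusted p = 0.061), Sdc1 (0.12, 0.44), Fetub (-0.14, 0.38) and Apoc3 (-0.05, 0.75). Whether FXR caused any difference in the list was not tested. Slc51b, part of the exporter that moves bile acids into blood, measured 8.80, 8.86 and 8.998 in HFD, against 6.84, 6.96 and 6.94 in RD (difference 1.98 ± 0.08, SE). Its partner subunit Slc51a, named after its values were seen, did not pass (-0.10 ± 0.10, SE; adjusted p = 0.65). The sterol exporter genes Abcg5 (1.11 ± 0.06, SE) and Abcg8 (1.09 ± 0.08, SE) rose alike. Also named after their values were seen, the bile salt pump gene Abcb11 rose by 0.37 ± 0.06 and the phospholipid exporter gene Abcb4 by 0.28 ± 0.06. The call of Abcb11 was lost without HFD replicate 2 or 3 or RD replicate 1 or 2 (adjusted p up to 0.073), and that of Abcb4 without any single array (highest adjusted p = 0.13). The count of targets that rose was 4, 3 and 3 without HFD replicate 1, 2 or 3 and 3, 3 and 5 on leaving out RD replicate 1, 2 or 3, and the count that fell was 4, 5 and 4 and then 3, 3 and 5 in the same order.

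Among the signalling genes of the FGF list, Dusp6, Dusp4, Spry4 and Spred1, which encode feedback inhibitors of ERK signalling, were higher in HFD. FGF signalling itself was not measured. Of 41 listed ligands, receptors and signalling genes 35 were measured, 5 rose and 0 fell, where 3.11% of all genes rose and 2.24% fell. The unadjusted p was under 0.05 for 10 of the 35, against 3926 of all 19938 genes, and the median difference was 0.05. Dusp6, a phosphatase that inactivates ERK, measured 11.51, 11.39 and 11.26 in HFD, against 9.86, 10.20 and 10.19 in RD (difference 1.30 ± 0.11, SE; limma adjusted p = 7.4e-04). Dusp4, a related phosphatase, measured 8.41, 8.44 and 8.57 in HFD, against 7.92, 7.69 and 7.54 in RD (difference 0.76 ± 0.10, SE). The diets were well apart for both phosphatases. Spry4 (0.52 ± 0.10, SE) and Spred1 (0.36 ± 0.07, SE), inhibitors of the Ras to ERK cascade, also rose, with HFD values that lay closer together than the RD values. With an array left out, Spry4 kept its call without RD replicate 2 alone and Spred1 without RD replicate 1 alone (highest adjusted p = 0.10 and 0.079). This left 3 risers without HFD replicate 1, 2 or 3 or RD replicate 3. Other inhibitors of the same cascade, named after their values were seen, did not pass: Spry1 (0.17, adjusted p = 0.21), Spry2 (-0.04, adjusted p = 0.85), Spred2 (-0.28, adjusted p = 0.27) and Il17rd (-0.03, adjusted p = 0.88). The transcription factor genes Etv5 (0.18, limma adjusted p = 0.51), Etv4 (0.05, 0.89), Egr1 (0.45, 0.54) and Fos (0.43, 0.16), named likewise, did not pass either.

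**Figure D3:**
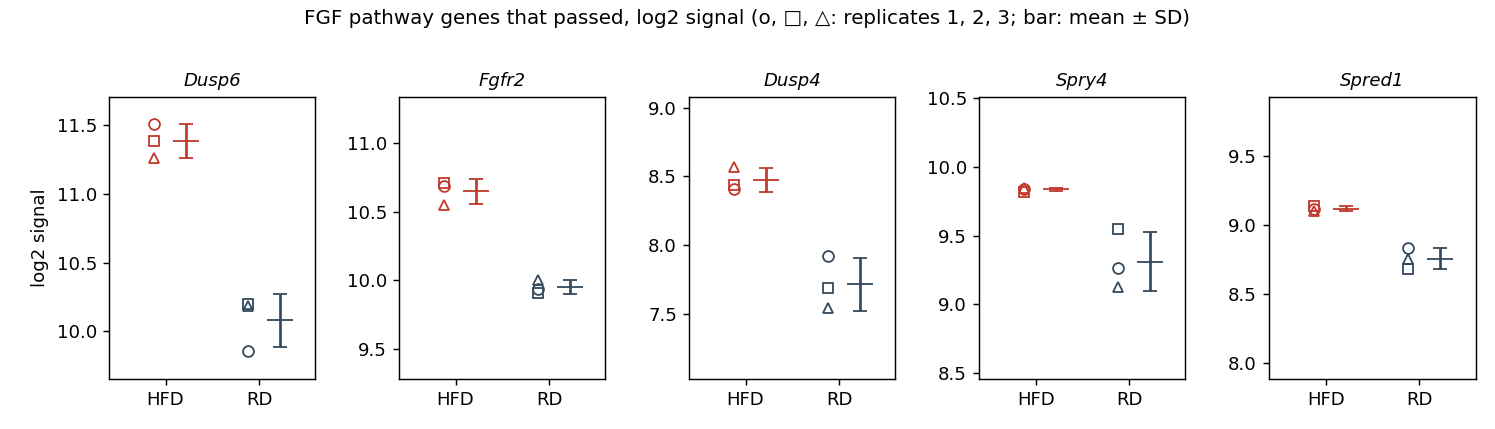
Log2 signal (y axis) of the 5 genes of the FGF list that rose, HFD left and RD right, with circles, squares and triangles for replicates 1, 2 and 3 and a bar for the mean and SD (n = 3). The 3 HFD values lie above the 3 RD values in each panel, by the widest margin for Dusp6 (11.26 to 11.51 in HFD, against 9.86 to 10.20 in RD).

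The FGF receptor that rose was not the bile acid feedback receptor. Fgfr2, a receptor for other fibroblast growth factors, measured 10.69, 10.71 and 10.55 in HFD, against 9.94, 9.91 and 10.01 in RD (difference 0.70 ± 0.07, SE; limma adjusted p = 0.0016). Named after their values were seen, Fgfr3 (-0.35, adjusted p = 0.052) and Fgfr1 (-0.05, adjusted p = 0.79) did not pass. All HFD values of Fgfr3 lay below all RD values, the opposite direction to Fgfr2. The adjusted p of Fgfr3 ran from 0.027 to 0.18 over the other limma and linear model fits to all 6 arrays. The ligand gene Fgf15, made mainly in the ileum, measured 5.96, 6.02 and 6.27 in HFD, against 5.99, 5.89 and 6.08 in RD, and did not pass (adjusted p = 0.65). The liver hormone gene Fgf21, which signals through Klb, overlapped between the diets as well (difference 0.16, adjusted p = 0.53). Gut tissue was not analysed here.

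Of 37 listed partners and coregulators of the receptors 35 were measured, 1 rose and 2 fell, where 5.35% of all genes passed, with a median of -0.01. Prox1, a corepressor of LRH-1 and HNF4A, measured 10.58, 10.62 and 10.42 in HFD, against 10.999, 11.41 and 11.53 in RD (difference -0.77 ± 0.13, SE; limma adjusted p = 0.017), a call lost without HFD replicate 3 or RD replicate 2 (adjusted p up to 0.071). The kinase gene Prkcz fell by 0.40 ± 0.07 on the log2 scale, and of the fits lacking an array it passed in the one lacking RD replicate 1 alone (highest adjusted p = 0.076). The call of Prkcz was lost as well when its 2 probe sets were averaged. Tbl1x, a subunit of the corepressor complex with NCoR, rose by 0.31 ± 0.07, a call lost on removal of any array (highest adjusted p = 0.14) and when arrays were centred on their median. Rxra, the partner with which FXR binds DNA and named after its values were seen, did not pass (-0.19, adjusted p = 0.18).

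Other hepatocyte transcription factors that passed were lower in HFD, as Nr1h4 was. Of 36 listed 32 were measured, and 0 rose and 5 fell, where 3.11% of all genes rose and 2.24% fell. The unadjusted p was under 0.05 for 10 of the 32, against 3926 of all 19938 genes, and the median was -0.03. Foxa3, a relative of Foxa2, fell by 0.82 ± 0.08 on the log2 scale and Cebpa, a factor of hepatocyte differentiation, by 0.83 ± 0.10 (SE; limma adjusted p = 0.0015 and 0.0033). Tbx3, a T-box factor, fell by 0.73 ± 0.13, a call lost without HFD replicate 1 or RD replicate 2 (adjusted p up to 0.069). The nuclear receptor genes Nr1i3 (CAR) and Ppara each fell by 0.30 on the log2 scale, calls lost on removal of any array (highest adjusted p = 0.12). The count that fell was 2, 3 and 3 without HFD replicate 1, 2 or 3 and 3, 2 and 3 without RD replicate 1, 2 or 3.

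Of 36 listed targets of HNF4A 30 were measured, 1 rose and 5 fell, where 3.11% of all genes rose and 2.24% fell. A negative difference was seen in 25 of the 30, with a median of -0.09 (10133 of all 19938 genes were negative). These targets were bright, with a median RD level of 12.8 against 7.53 for all genes. The hepatocyte markers, some of which are on both lists, leaned alike, with 9 of 12 negative. The HNF4A targets that fell were Cyp8b1, Cyp7a1, the glucose phosphatase G6pc (-0.65 ± 0.09, SE), the bile acid importer Slc10a1 (-0.36 ± 0.06, SE) and the coagulation factor gene F11 (-0.70 ± 0.13, SE). The carboxylesterase gene Ces2a rose by 0.95 ± 0.09. With an array left out, Slc10a1 and F11 kept their calls in the fit lacking HFD replicate 2 alone (highest adjusted p = 0.068 and 0.093). The count that fell was 3 without HFD replicate 1 or 3 or any RD array.

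**Figure D4:**
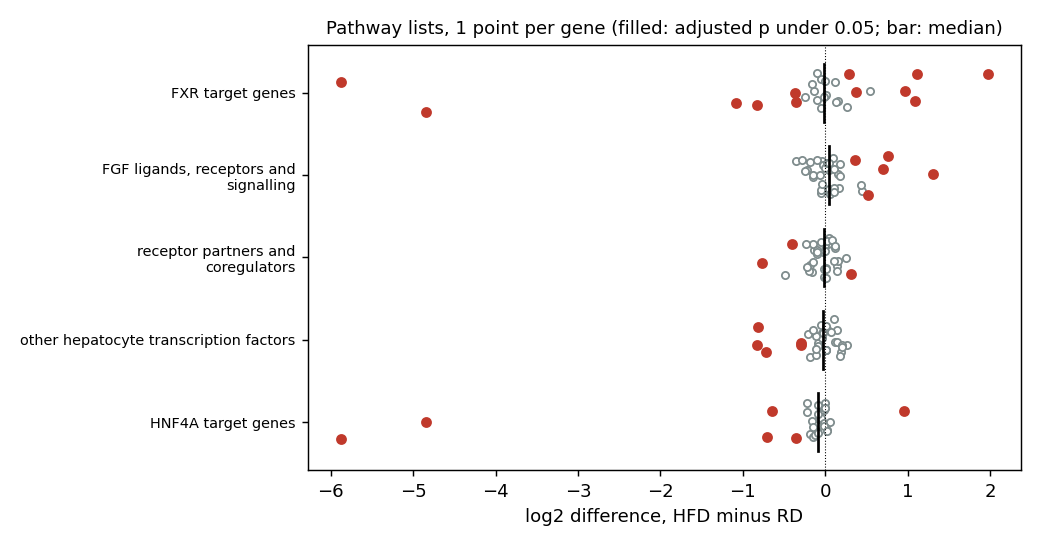
Log2 difference, HFD minus RD (x axis), of every measured gene in the 5 pathway lists (rows), filled where the adjusted p was under 0.05, with a bar at each list's median. The medians lie between -0.09 and 0.05, and the filled points of the FGF list are all above 0 while those of the other transcription factors are all below 0.

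The genes whose profile was most like each changed member were found from log2 values centred over the 6 arrays. Nearest to Nr0b2 was Dusp6, with a root mean square distance of 0.11, followed by the adhesion receptor gene Adgrg2 at 0.12. Nearest to Nr1h4 was the cytochrome gene Cyp2j6, at 0.042, followed by G6pc at 0.086. No array of Cyp2j6 lay more than 0.062 from Nr1h4 on this centred scale. With 6 arrays in 2 diets, such likeness rests mostly on the difference between the diets.

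Markers of bile duct cells and of liver macrophages moved with the diet beside these results. Among all genes 3.11% rose and 2.24% fell. Of 8 measured markers of cholangiocytes, the bile duct cells, which also use Onecut1, 7 rose and 0 fell. Their mean log2 level per array was 7.20 to 7.32 in HFD, against 6.80 to 6.89 in RD, and, named after their values were seen, Tspan8 was higher by 0.60 ± 0.08, Epcam by 0.54 ± 0.10 and Krt19 by 0.70 ± 0.14 (SE). Tspan8 and Epcam were dim, with mean RD levels of 5.42 and 6.16 against a median of 7.53 for all genes. The count was 1 without RD replicate 1 and 2 on removal of each other array. It was 5 with arrays centred on their median and 3 among the brighter genes alone. In a linear model that shares no variance between genes it was 0. Of 14 markers of Kupffer cells, the liver macrophages, 6 rose and 0 fell, with a mean level per array of 10.2 to 10.6 in HFD, against 9.88 to 9.96 in RD. Removal of HFD replicate 1, 2 or 3 gave 6, 9 and 3, and removal of RD replicate 1, 2 or 3 gave 2, 2 and 3. The linear model that shares no variance gave 0 for these markers too. Of 12 hepatocyte markers 0 rose and 1 fell, and their mean level per array was 13.53 to 13.55 in HFD, against 13.57 to 13.61 in RD. Detection calls were not used here, so no marker can be called absent. The part of these cell types in the differences of the members was not tested.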

How the data were processed

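Liver total RNA was labelled with GeneChip WT terminal reagents, per the labels' protocols. The deposited values are log2 signals, 1 for each probe set on each array. Base 2 was inferred from the range, 2.28 to 14.86. Which summarisation and normalization the authors used was not given in the sources used here. No depth applies to arrays. Scan dates were not used here, so batches were not tested.

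Of 35512 rows, 21789 had 1 symbol in the platform annotation, 1621 several and 12102 none. Values were used as deposited, with the brightest probe set per gene (999 genes had more than 1), which left 19938 genes. Diet was fitted in limma 3.58.1 (R 4.3.3; lmFit, eBayes), two-sided, and p-values were adjusted over all genes (Benjamini-Hochberg, called under 0.05). The fit was checked on simulated data.

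The members, 5 pathway lists and 7 marker lists were chosen with earlier results of these data known, and the motifs with the sequences in view. Named are the 8 members, per pathway list up to 6 genes that passed with the smallest p, and the 2 genes nearest to each changed member. Others are said to be named after their values were seen. Promoter windows came from RefSeq tables (GRCm38.p6), which held all 8 members. Alternatives were quantile normalization, median centring, array weights, an unmoderated linear model, a block for the replicate number, averaging a gene's probe sets, the brighter genes alone, a robust prior with an intensity trend, and leaving out each array. Replicate numbers came from the sample titles.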

Additional observations from a re-analysis of the deposited data

How the results depend on the processing

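The calls of Nr0b2 (difference 1.01 to 1.24) and Nr1h4 (-0.82 to -0.66) held when each of the 6 arrays was left out, with adjusted p up to 0.011 and up to 0.041, and under the 7 other alternatives that share variance between genes. An unmoderated linear model, which uses each gene's own 4 residual degrees of freedom, called 0 members higher and 0 lower (adjusted p = 0.089 for Nr0b2 and 0.11 for Nr1h4). The other 6 members did not pass under any alternative run. Foxa2 changed sign under quantile normalization (-0.018), median centring (-0.020), without HFD replicate 2 (-0.04) and without RD replicate 3 (-0.13). Its differences without 1 array ran from -0.13 to 0.073.

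Of all genes 621 were higher and 446 lower, 197 to 371 and 178 to 273 without 1 array, 41 and 58 in the unmoderated model. In that model 3 FXR targets were higher and 1 lower, 0 FGF genes, 0 coregulators either way, 0 other factors lower, and 0 HNF4A targets higher and 2 lower. Among FGF genes 1 was lower under quantile normalization, median centring, brighter genes only, the robust trend and array weights. Higher coregulators numbered 0 under median centring and 2 among brighter genes or with the robust trend, and lower ones 1 with the mean of all probe sets. Other factors higher were 2 among brighter genes and 1 with the robust trend, with which 9 HNF4A targets were lower. Without 1 array the ranges were 3 to 5 FXR targets higher and 3 to 5 lower, 3 to 4 FGF genes higher, 0 to 0 coregulators higher and 0 to 2 lower, 2 to 3 other factors lower and 3 to 5 HNF4A targets lower.

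The deviations of same-numbered arrays from their diet means correlated across genes at -0.11, 0.000072 and 0.12. With 3 arrays per diet, this cannot show whether same-numbered samples shared more than a number. With the replicate number as a block, 318 genes were higher and 245 lower. That fit gave 3 FGF genes and 0 coregulators higher, 1 coregulator and 3 other factors lower, and 2 cholangiocyte and 4 Kupffer cell markers higher. In it Nr0b2 (limma adjusted p = 0.013) and Nr1h4 (adjusted p = 0.032) kept their calls. In 1 of 3 numbers the HFD array correlated best with its own number. Signal over background was not used here, so dim genes such as Fgf15 limit what can be seen.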

Other observations

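Hnf4aos, the antisense gene beside Hnf4a, has a probe set of its own and was named after its values were seen. It measured 8.36, 8.31 and 8.51 in HFD, against 8.05, 8.79 and 8.04 in RD, and did not pass (difference 0.10 ± 0.19, SE; limma adjusted p = 0.83). RD replicate 2 was the highest of the 6 values and the other RD arrays the lowest. Its SD within RD was 0.43, against 0.033 for Hnf4a itself.

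Other marker lists gave few calls. Among all genes 3.11% rose and 2.24% fell, and 3926 of 19938 had an unadjusted p under 0.05. Of 12 endothelial and 12 stellate cell markers 0 passed in limma (2 and 1 at an unadjusted p under 0.05), and likewise 0 of 12 lymphocyte markers (0 at an unadjusted p under 0.05). The mean lymphocyte level per array was 6.25 to 6.82 in HFD, against 6.30 to 6.42 in RD. Named after their values were seen, Cd3g (7.40, 6.50 and 6.39 in HFD), Ncr1 (6.22, 5.32 and 5.34) and Nkg7 (8.09, 7.28 and 7.26) were highest on HFD replicate 1. Cd3d was highest on HFD replicate 3 (5.66). Of 11 markers of monocytes and neutrophils 2 rose and 0 fell, and 1 rose without RD replicate 1, 2 or 3.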
